A study of Mus musculus with 24 samples.

Results

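The genes described here form the type 2 cytokine axis and the alternative activation programme of macrophages: the cytokines Il13 and Il33, the receptor chains Il1rl1, Il4ra, Il13ra1 and Il13ra2, and the response genes Retnla, Arg1, Alox15 and Mrc1. They were chosen by symbol, and a gene was measured where a row of the expression table named it and no other gene. Of the 10 genes, 9 had such a row, 1 row each, among 21789 rows that name exactly 1 gene (19938 genes). No row was annotated to Il1rl1 alone, and this receptor of interleukin 33 was not analysed here. The study itself lists fold changes of Il1rl1 in whole lung.

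The study followed lungs of Scnn1b-Tg mice, a model of airway surface dehydration and mucus obstruction, and of WT littermates from birth to young adulthood. Total RNA of the left lobe was measured on Affymetrix gene arrays. The series holds 24 arrays in 8 groups, 3 arrays each of Scnn1b-Tg and of WT lungs at postnatal day (PND) 0, 3, 10 and 42, where PND 0 is the first day of life. All animals were males of strain C57Bl/6N Tac, housed free of specific pathogens. The transgene carries Scnn1b, the beta subunit of the epithelial sodium channel, under the promoter of the club cell gene Scgb1a1, so its expression is directed to club cells of the airway epithelium. Each array holds RNA pooled from several mice. By the labels a pool held 2 animals, except that Scnn1b-Tg PND 42 replicate 3 came from 1, whereas the methods of the study describe pools of 3.

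In type 2 immunity, epithelial alarmins such as interleukin 33 activate innate lymphoid cells, mast cells and Th2 cells, which release interleukin 13. Interleukin 13 binds a receptor of IL-4Ra and IL-13Ra1 that signals through the transcription factor STAT6, while IL-13Ra2 acts mainly as a decoy. In mouse macrophages this signal, or interleukin 4, induces the secreted resistin-like protein RELMa (Retnla), arginase 1 (Arg1) and the mannose receptor CD206 (Mrc1), and in the airway epithelium it drives goblet cell genes. Alox15 encodes a lipoxygenase of macrophages and eosinophils that makes lipid mediators.

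Array medians lay between 4.79 and 5.0 log2, and the mean correlation of an array with the others of its group between 0.972 and 0.993. The lowest of these correlations belonged to replicates 1 and 3 of Scnn1b-Tg PND 42. The transgene labels held on every array: Scnn1b ranged from 9.62 to 10.94 in Scnn1b-Tg lungs, against 6.37 to 8.22 in WT lungs, without overlap. All 9 lung markers set out (Sftpc, Sftpb, Sftpa1, Scgb1a1, Ager, Hopx, Foxj1, Pecam1, Cldn5) were measured, with a mean level of 9.87 to 10.62 on every array, and the dimmest of them, the ciliated cell gene Foxj1, lay between 4.95 and 5.88.

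Promoter sequence was available for 8 of the 10 genes, as 10 windows of the 250 bases before an annotated gene start (RefSeq, build GRCm38.p6). Arg1 and Alox15 were without an entry. The windows are shown for Retnla and Il33, which hold a STAT6 motif (TTC and GAA with any 4 bases between them), and for Mrc1, which moved with Retnla at PND 42 and holds none. Both strands were searched, and capitals mark matches to it or to the C/EBP-like motif TTGCNNAA. The Retnla window is chr16:48842359-48842608 (plus strand), that of the first Il33 start chr19:29924863-29925112 (plus strand), and that of Mrc1 chr2:14229164-14229413 (plus strand).
Retnla: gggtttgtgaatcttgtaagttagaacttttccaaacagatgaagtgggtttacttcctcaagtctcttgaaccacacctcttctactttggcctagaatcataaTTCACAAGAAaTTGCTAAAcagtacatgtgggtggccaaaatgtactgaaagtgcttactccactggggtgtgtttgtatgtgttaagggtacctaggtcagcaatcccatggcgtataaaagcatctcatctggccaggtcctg
Il33: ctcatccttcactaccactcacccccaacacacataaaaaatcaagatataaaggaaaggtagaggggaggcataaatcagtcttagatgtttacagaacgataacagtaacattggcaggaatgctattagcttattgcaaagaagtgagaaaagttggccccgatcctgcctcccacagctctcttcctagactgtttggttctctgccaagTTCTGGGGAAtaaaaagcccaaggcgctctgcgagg
Mrc1: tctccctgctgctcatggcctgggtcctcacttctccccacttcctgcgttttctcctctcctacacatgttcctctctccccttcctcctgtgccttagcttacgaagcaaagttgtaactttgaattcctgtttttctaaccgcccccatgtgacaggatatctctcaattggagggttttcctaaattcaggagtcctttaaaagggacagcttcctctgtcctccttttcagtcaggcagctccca
In Retnla the match TTCACAAGAA lay at positions -145 to -136, with -1 the base before the start, and the match TTGCTAAA at -134 to -127, 1 base downstream and without overlap. In Il33 the match TTCTGGGGAA lay at -36 to -27. The second Il33 start and the first Il1rl1 start held TTGCATAA, and the windows of Il13, Il4ra, Il13ra1 and Il13ra2 held none of these motifs. A further motif, TTCNNNGAA, bound by other STAT proteins, was in none of the 10 windows. Over all 32851 promoter windows of this length, 5.85% hold the STAT6 motif, 9.56% TTGCNNAA and 7.02% TTCNNNGAA. Many other promoters thus hold a match, and the matches here are given as a description.

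At PND 42, 3 of the 9 measured genes were higher in Scnn1b-Tg lungs than in WT lungs: Arg1 by 2.60 log2 (6.04-fold), Retnla by 1.99 log2 (3.96-fold) and Mrc1 by 1.27 log2 (2.42-fold). These are markers of alternatively activated macrophages. The cytokines Il13 and Il33, the receptor chains Il4ra, Il13ra1 and Il13ra2, and Alox15 did not pass the test at this age. At PND 0, 3 and 10 none of the 9 passed.

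A gene was called where its Benjamini-Hochberg adjusted p, over all 21789 rows in limma, was at most 0.05 and its change at least 2-fold. At PND 42, 0.34% of all rows were called, and 0.326% were called higher, beside 3 of the 9 genes. At PND 10, PND 3 and PND 0, where none of the 9 was called, 0.151%, 0.0184% and 0.0138% of all rows were called. By unadjusted p values under 0.05 (limma), 3 of the 9 passed at PND 42, 1 passed at PND 0, and 0 did so at PND 3 or PND 10. All 9 differences were positive at PND 42, with a median of 0.42 log2 against 0.00 over all rows. In 4 of the 9 genes (Il33, Retnla, Arg1, Mrc1) every Scnn1b-Tg array lay above every WT array, as in 6.67% of all rows. Retnla, Arg1, Alox15 and Mrc1 are among the markers that the study itself examined in these lungs, and it listed Retnla, Arg1 and Mrc1 as higher at PND 42. Neither their number nor their direction is therefore independent evidence.

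**Figure D1:**
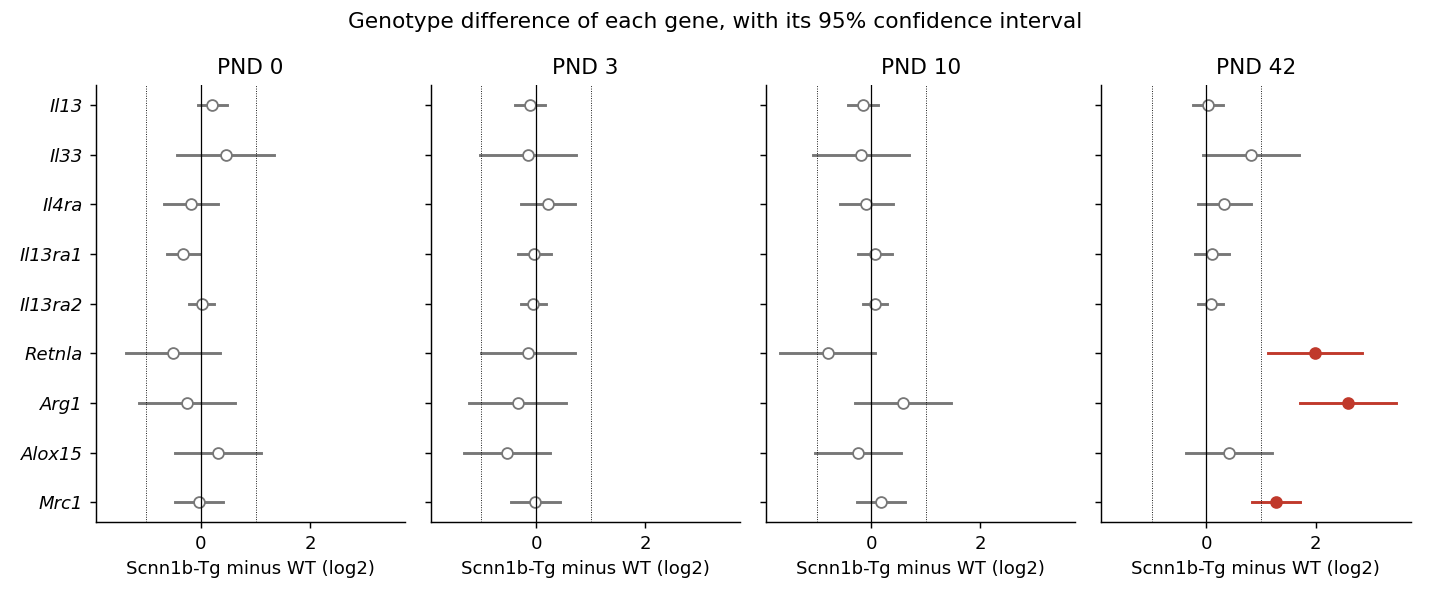
Difference of Scnn1b-Tg minus WT (log2, horizontal axis) for the 9 measured genes at PND 0, 3, 10 and 42. Circles are differences of 3 against 3 arrays, bars 95% confidence intervals of the limma fit, dotted lines 2-fold, and filled red circles the called genes. At PND 42 Retnla (1.99), Arg1 (2.60) and Mrc1 (1.27) are called, and at the earlier ages all 9 circles are open.

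Il13, the effector cytokine of the axis, stayed at the bottom of the scale. Its level lay between 3.66 and 4.20 log2 on all 24 arrays, under the level of 5 below which a row was treated as dim, so these arrays could show only a large increase. At PND 42 the Scnn1b-Tg arrays had 4.15, 3.92 and 3.79, against 3.83, 4.20 and 3.73 in WT arrays. The groups overlapped and the difference was 0.03 log2 (95% confidence interval -0.24 to 0.31; adjusted p = 0.973, limma). Of the variance of Il13, 65% lay between arrays of the same group.

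Il33, the alarmin, was well above the dim level in every group (6.45 to 9.02). In Scnn1b-Tg lungs it had 7.90, 8.91 and 7.66 at PND 0, 7.69, 8.04 and 7.54 at PND 3, 7.20, 8.05 and 7.98 at PND 10, and 8.63, 9.02 and 8.33 at PND 42. In WT lungs it had 6.45, 8.38 and 8.30 at PND 0, 7.72, 8.83 and 7.15 at PND 3, 8.11, 7.91 and 7.76 at PND 10, and 7.84, 7.71 and 8.0 at PND 42. The highest array of all was a Scnn1b-Tg array at PND 42 and the lowest the first WT array at PND 0. At PND 42 all 3 Scnn1b-Tg arrays lay above all 3 WT arrays, yet the difference of 0.81 log2 (SE 0.43, 95% confidence interval -0.07 to 1.69) did not pass (adjusted p = 0.549, limma). Of the variance of Il33, 73.1% lay between arrays of the same group, the largest such share of the 9 genes. Within Scnn1b-Tg lungs Il33 was 0.91 log2 (SE 0.43) above its PND 10 level at PND 42, which did not pass either (adjusted p = 0.114, limma).

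Il4ra, the shared receptor chain of interleukins 4 and 13, lay between 6.94 and 8.57 and had its highest means at birth. It had 8.09, 7.89 and 7.57 in Scnn1b-Tg lungs, against 8.57, 7.69 and 7.82 in WT lungs at PND 0. By PND 3 Il4ra had 7.71, 7.29 and 7.28 in Scnn1b-Tg lungs, against 6.98, 7.69 and 6.94 in WT lungs. In WT lungs Il4ra at PND 3 was thus 0.82 log2 (SE 0.24) below PND 0, with an adjusted p of 0.00707 (limma) but less than 2-fold. Without WT PND 0 replicate 1 it was -0.55 log2 (adjusted p = 0.0627), and without WT PND 3 replicate 2 it was -1.07 log2 and called (adjusted p = 0.00119). In Scnn1b-Tg lungs the difference of -0.43 log2 did not pass (adjusted p = 0.138, limma). At PND 42 Il4ra had 7.23, 8.18 and 7.93 in Scnn1b-Tg lungs, against 7.63, 7.35 and 7.34 in WT lungs: 2 of 3 Scnn1b-Tg arrays were above all WT arrays and the third was below them. The Il4ra difference was 0.33 log2 (95% confidence interval -0.15 to 0.82; adjusted p = 0.704, limma).

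Il13ra1, the partner chain in the signalling receptor, varied little (8.18 to 9.24). In Scnn1b-Tg lungs it had 8.92, 9.01 and 8.77 at PND 3, against 8.20, 8.39 and 8.18 at PND 0, an increase of 0.64 log2 (SE 0.15, adjusted p = 0.00128, limma) that stayed under 2-fold. In WT lungs the same comparison gave 0.36 log2 (adjusted p = 0.0534, limma), and the difference between these 2 changes was 0.28 log2 (95% confidence interval -0.15 to 0.72; adjusted p = 0.998, limma). At PND 42 Il13ra1 averaged 8.56 ± 0.10 in Scnn1b-Tg lungs and 8.45 ± 0.30 in WT lungs (SD, n = 3 arrays each), a difference of 0.11 log2 (95% confidence interval -0.20 to 0.42).

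Il13ra2, the decoy chain, was dim in all 8 groups (4.09 to 4.98) but followed age closely: 85.7% of its variance lay between ages and 1.11% between genotypes within an age. At PND 3 its arrays had 4.75, 4.75 and 4.68 in Scnn1b-Tg lungs and 4.70, 4.77 and 4.85 in WT lungs. At PND 0 they had 4.29, 4.09 and 4.12 in Scnn1b-Tg lungs and 4.19, 4.18 and 4.09 in WT lungs, without overlap with PND 3 in either genotype. PND 3 exceeded PND 0 by 0.56 log2 in Scnn1b-Tg lungs (adjusted p = 0.000231, limma) and by 0.62 log2 in WT lungs (adjusted p = 7.89e-05, limma), both under 2-fold. At PND 42 the genotypes differed by 0.08 log2 (95% confidence interval -0.15 to 0.30).

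**Figure D2:**
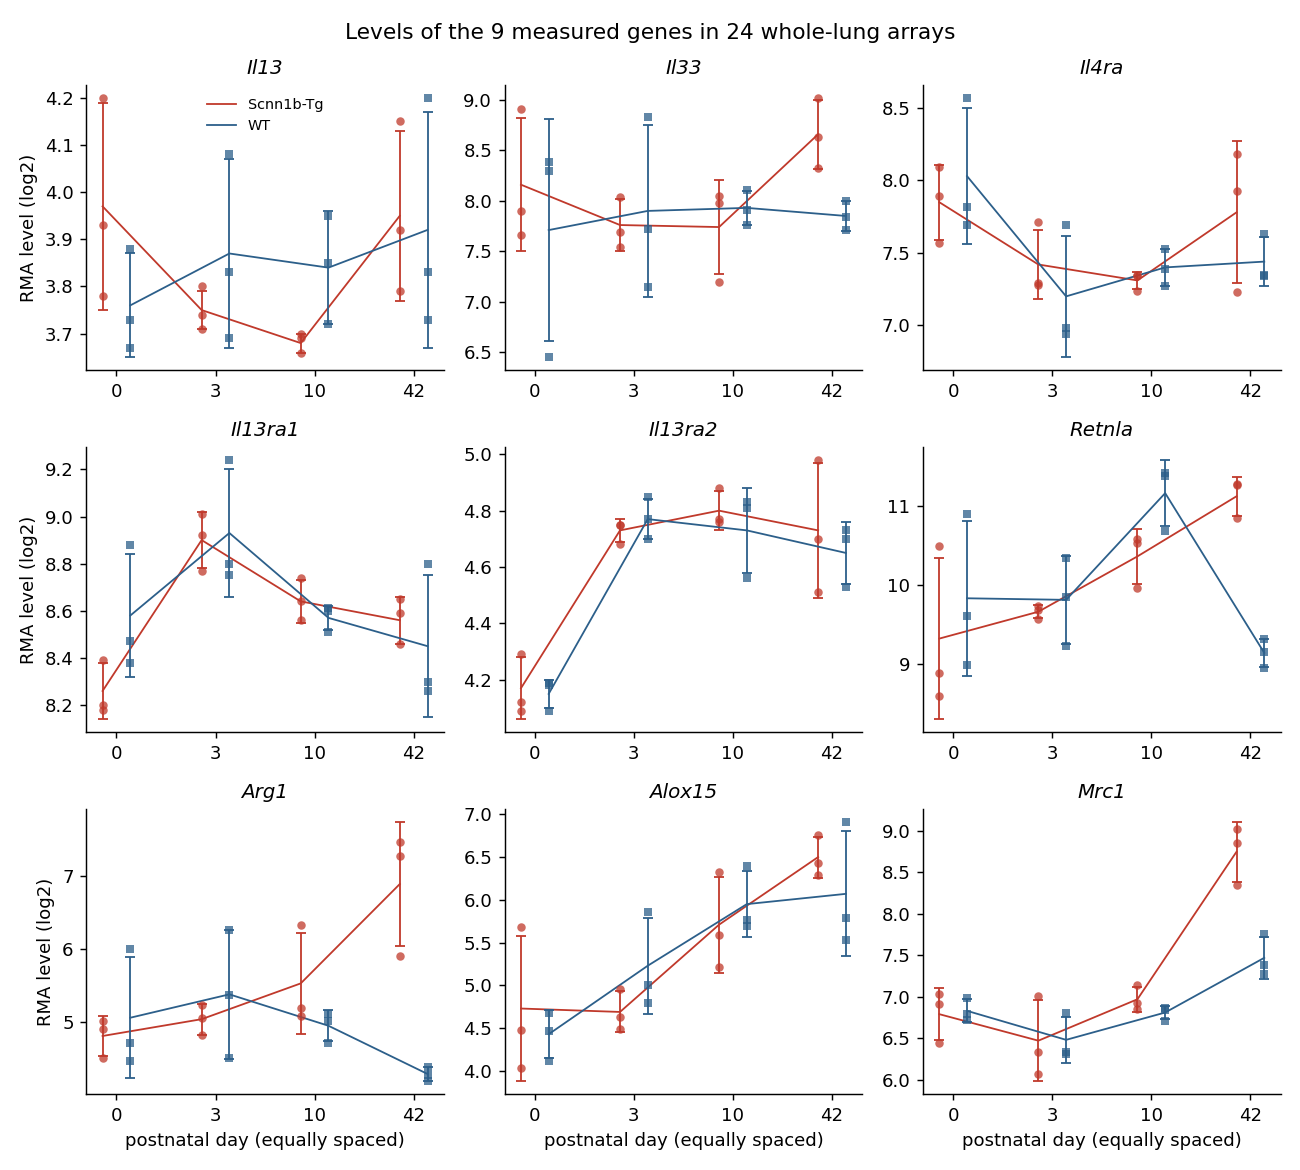
RMA level (log2, vertical axis, a separate range for each gene) of the 9 measured genes against postnatal day (equally spaced steps). Red circles are Scnn1b-Tg arrays and blue squares WT arrays, lines join group means, and bars are 1 SD over 3 arrays. At PND 42 Retnla, Arg1 and Mrc1 separate by genotype, whereas Alox15 is higher in older lungs of both genotypes, and Il13 stays between 3.66 and 4.20.

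Retnla encodes RELMa, a protein secreted by alternatively activated macrophages and by airway and alveolar epithelium of mice. In Scnn1b-Tg lungs its level was 10.49, 8.89 and 8.59 at PND 0, 9.57, 9.73 and 9.68 at PND 3, 9.96, 10.53 and 10.58 at PND 10, and 11.26, 11.27 and 10.84 at PND 42. In WT lungs it was 10.90, 9.60 and 8.99 at PND 0, 9.85, 10.34 and 9.23 at PND 3, 11.42, 11.38 and 10.68 at PND 10, and 9.31, 9.15 and 8.95 at PND 42. WT lungs were therefore highest at PND 10 and lowest at PND 42, and Scnn1b-Tg lungs were highest at PND 42. At birth the arrays of a group spread over almost 2 log2, and in both genotypes replicate 1 was the high one.

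At PND 42 the Scnn1b-Tg arrays lay above all WT arrays for Retnla, a difference of 1.99 log2 (SE 0.42, adjusted p = 0.0187, limma). At PND 10 the order was the opposite, with every Scnn1b-Tg array below every WT array, as in 8.58% of all rows at that age. This difference of -0.80 log2 (SE 0.42, 95% confidence interval -1.67 to 0.06) did not pass (adjusted p = 0.63, limma). In WT lungs Retnla at PND 42 was 2.02 log2 below PND 10 (adjusted p = 0.000761, limma), the 1 gene of the 9 called in that interval, in which 3.84% of all rows were called lower and 5.54% in either direction. From PND 3 to PND 10 in WT lungs the Retnla difference was 1.35 log2 and did not pass (adjusted p = 0.0647, limma). It passed with the replicate number as a block (0.0308), with array weights (0.00976), with dim rows left out (0.0391) and with the compared arrays alone (0.0353). From PND 10 to PND 42 Scnn1b-Tg lungs gave 0.77 log2 (95% confidence interval -0.10 to 1.63; adjusted p = 0.18, limma). The genotype difference at PND 42 minus that at PND 10 was 2.79 log2 (SE 0.59, adjusted p = 0.0441, limma), and again Retnla was the 1 gene of the 9 called, against 0.225% of all rows. For PND 10 minus PND 3 none of the 9 was called, against 0.00918% of all rows. In whole lung tissue, more cells with a transcript and more transcript per cell cannot be told apart, here and for every gene below.

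The Retnla calls stood near the threshold. Left out 1 at a time, the arrays of PND 42 gave 1.89 to 2.13 log2 and adjusted p values of 0.0309 to 0.0915 (limma), and the call was lost without WT replicate 2 (0.0655), WT replicate 3 (0.0878) or Scnn1b-Tg replicate 2 (0.0915). It was also lost without variance moderation (0.0829) and with a robust, intensity-dependent prior (0.0574). The change of the genotype difference stayed between 2.59 and 3.03 log2 but lost its call in 10 of 12 such fits, with adjusted p values of 0.0434 to 0.143 (limma), keeping it without WT PND 10 replicate 3 or Scnn1b-Tg PND 42 replicate 1.

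Arg1 encodes the arginase that marks alternative activation in mouse macrophages. In Scnn1b-Tg lungs it had 4.91, 4.51 and 5.01 at PND 0, 5.24, 5.06 and 4.82 at PND 3, 6.33, 5.08 and 5.19 at PND 10, and 5.91, 7.47 and 7.27 at PND 42. In WT lungs it had 6.00, 4.72 and 4.47 at PND 0, 4.51, 6.26 and 5.37 at PND 3, 5.02, 5.11 and 4.72 at PND 10, and 4.20, 4.39 and 4.28 at PND 42. The WT arrays of PND 42 were the 3 lowest of all 24 and lay close together, and the lowest Scnn1b-Tg array of PND 42 stood above them by more than 1 log2. The genotype difference at PND 42 was 2.60 log2 (SE 0.42, adjusted p = 0.00166, limma), and it was called in every fit that left out 1 array (2.30 to 3.08 log2). WT PND 42 was under the dim level, so the fold may understate the change.

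Within Scnn1b-Tg lungs Arg1 was 1.35 log2 (SE 0.42) higher at PND 42 than at PND 10 (adjusted p = 0.0188, limma). This call was lost without Scnn1b-Tg PND 10 replicate 2 (0.0902) or 3 (0.0801) and without Scnn1b-Tg PND 42 replicate 2 (0.0948) or 3 (0.076). The change of the genotype difference between PND 10 and PND 42 was 2.02 log2 (SE 0.60) and did not pass (adjusted p = 0.176, limma). Without Scnn1b-Tg PND 42 replicate 1 it was 2.50 log2 and passed (adjusted p = 0.0429, limma). At PND 10 the difference was 0.58 log2 (95% confidence interval -0.30 to 1.46).

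Mrc1 encodes CD206, the mannose receptor of tissue macrophages. In Scnn1b-Tg lungs it had 6.44, 7.03 and 6.91 at PND 0, 7.01, 6.33 and 6.07 at PND 3, 7.14, 6.93 and 6.85 at PND 10, and 8.35, 9.03 and 8.86 at PND 42. In WT lungs it had 6.72, 6.79 and 6.99 at PND 0, 6.31, 6.33 and 6.81 at PND 3, 6.84, 6.87 and 6.71 at PND 10, and 7.38, 7.28 and 7.76 at PND 42. The genotypes overlapped at PND 0, 3 and 10 and were apart at PND 42, when both were above their own earlier levels. Of the variance of Mrc1, 70.8% lay between ages and 10.1% between arrays of the same group.

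The Mrc1 difference at PND 42 was 1.27 log2 (SE 0.21, adjusted p = 0.00197, limma), called without any 1 of the arrays (1.13 to 1.47 log2). From PND 10 to PND 42 it rose by 1.77 log2 in Scnn1b-Tg lungs (adjusted p = 2.62e-06, limma). In WT lungs the same interval gave 0.67 log2 (adjusted p = 0.0206, limma), under 2-fold. The difference between these changes, 1.11 log2 (SE 0.30), did not pass (adjusted p = 0.129, limma), except without Scnn1b-Tg PND 42 replicate 1 (1.31 log2, adjusted p = 0.0432).

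Alox15 was higher in older lungs of both genotypes. In Scnn1b-Tg lungs it had 4.04, 4.48 and 5.68 at PND 0, 4.63, 4.49 and 4.96 at PND 3, 6.32, 5.59 and 5.22 at PND 10, and 6.43, 6.29 and 6.76 at PND 42. In WT lungs it had 4.12, 4.47 and 4.68 at PND 0, 5.01, 4.80 and 5.86 at PND 3, 6.40, 5.76 and 5.69 at PND 10, and 5.53, 6.91 and 5.79 at PND 42. In both genotypes every array of PND 42 lay above every array of PND 0, and the genotypes overlapped at every age. PND 42 exceeded PND 0 by 1.76 log2 in Scnn1b-Tg lungs (SE 0.38, adjusted p = 0.000597, limma) and by 1.65 log2 in WT lungs (SE 0.38, adjusted p = 0.00105, limma). The genotype difference at PND 42 was 0.42 log2 (95% confidence interval -0.37 to 1.21; adjusted p = 0.793, limma).

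From birth to PND 42, 4 of the 9 genes were higher in Scnn1b-Tg lungs (Mrc1 by 1.95, Arg1 by 2.08, Retnla by 1.80 and Alox15 by 1.76 log2), where 11.2% of all rows were called and 2.48% were called higher. In WT lungs Alox15 was the 1 gene called, where 11.4% of all rows were called and 1.71% were called higher. In Scnn1b-Tg lungs 2 of 9 were called higher at PND 42 than at PND 10 (Arg1, Mrc1), against 5.17% of rows called and 1.79% called higher. None of the 9 was called for PND 3 against PND 0, where 10.3% of rows in Scnn1b-Tg and 9.75% in WT lungs were called. An unadjusted p under 0.05 (limma) was reached by 2 of the 9 in Scnn1b-Tg and 4 in WT lungs. Of all 21789 rows, 12221 in Scnn1b-Tg and 11745 in WT lungs reached it, so it says little about the 9 genes. None of the 9 was called for PND 10 against PND 3, with 1.09% of rows called in Scnn1b-Tg and 1.29% in WT lungs. There 2 of the 9 had an unadjusted p under 0.05 (limma) in each genotype. So did 3113 of all 21789 rows in Scnn1b-Tg and 3528 in WT lungs. The comparisons with PND 42 share the PND 42 arrays of their genotype, so they are not separate pieces of evidence.

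Other genes of alternative activation were higher in Scnn1b-Tg lungs as well. Of a list of 28 such genes 27 were measured. At PND 42, where 0.326% of all rows were called higher, 8 of the 27 were higher in Scnn1b-Tg lungs and none lower. The median of the 27 was 0.78 log2, against 0.00 over all rows. The largest differences were in the chitinase-like gene Chil4 (4.42 log2, adjusted p = 1.84e-08), the macrophage elastase Mmp12 (4.34, adjusted p = 3.47e-09), the chitinase-like gene Chil3 (2.70, adjusted p = 0.000223) and Ch25h, which makes 25-hydroxycholesterol (2.54, adjusted p = 2.73e-06, all limma). The C-type lectin Mgl2 (1.46), the eosinophil chemokine Ccl24 (1.41), fibronectin Fn1 (1.19) and the arginine transporter Slc7a2 (1.17 log2) completed the 8. The calls of Chil4, Mmp12, Chil3, Ch25h and Mgl2 held without any 1 of the 6 arrays. That of Ccl24 was lost in 5 of 6 such fits (all but without Scnn1b-Tg replicate 1), with adjusted p values up to 0.108. Those of Fn1 (without WT replicate 3, Scnn1b-Tg replicate 2 or 3; up to 0.0886) and Slc7a2 (without WT replicate 2 or 3, Scnn1b-Tg replicate 2; up to 0.124) were lost in 3 each. Ccl8 (0.99 log2), Pdcd1lg2 (0.87) and Clec10a (0.78) had adjusted p values of 0.000273, 0.0016 and 0.000454 but changed less than 2-fold. Of the listed genes the study named several in this model, Chil3, Chil4 and Mmp12 among them, so the count is not independent evidence, and Chil3 and Chil4 are near-identical copies whose probe sets may share signal. The same holds for Csf2rb and Csf2rb2, named below.

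**Figure D3:**
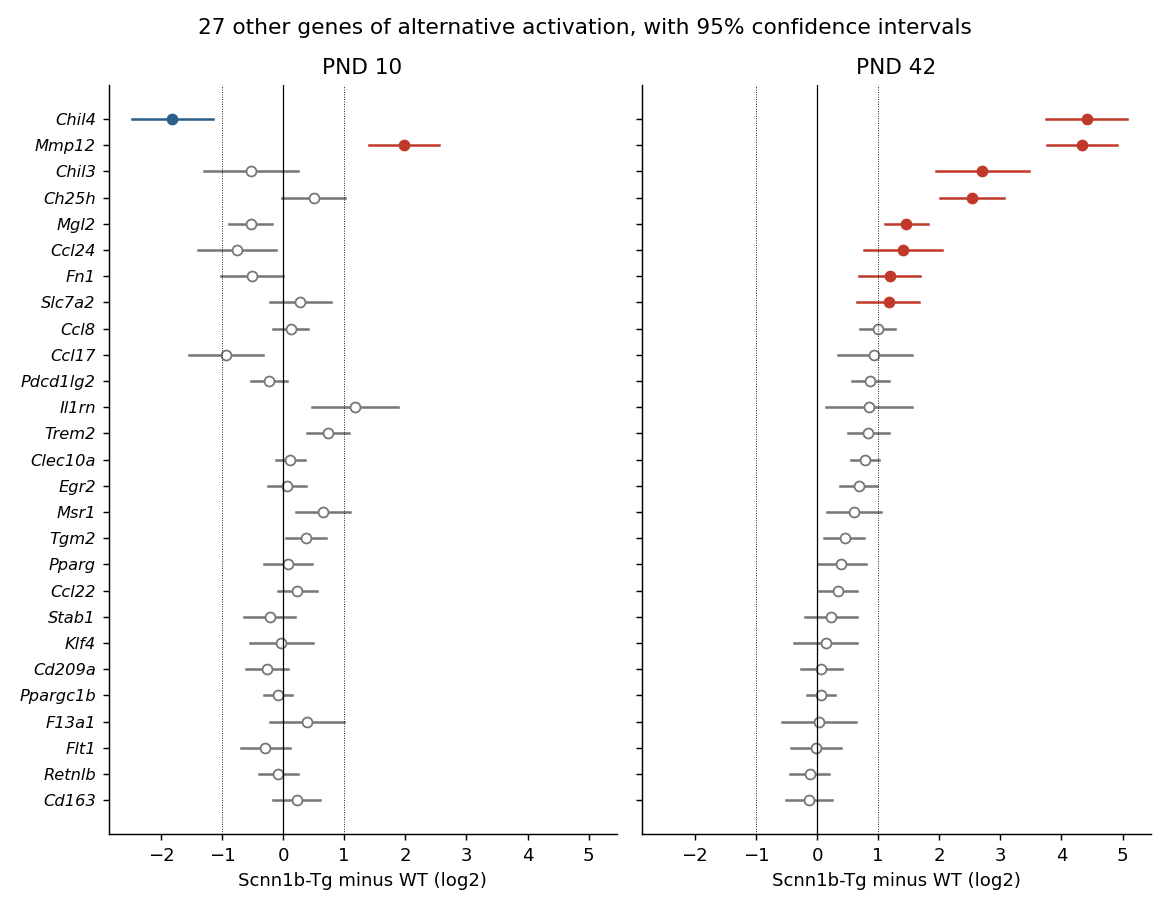
Difference of Scnn1b-Tg minus WT (log2, horizontal axis) at PND 10 and PND 42 for the 27 measured genes of the alternative activation list, ordered by their PND 42 difference. Circles are differences of 3 against 3 arrays, bars 95% confidence intervals, dotted lines 2-fold, filled red called higher and filled blue called lower. At PND 42, 8 genes are called higher, led by Chil4 (4.42) and Mmp12 (4.34), and at PND 10 Mmp12 (1.98) is called higher and Chil4 (-1.82) lower.

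The PND 10 comparison, where 0.151% of all rows were called, gave a different picture for the same list. Called higher was 1 gene (Mmp12, 1.98 log2, adjusted p = 0.00125, limma), and 1 was called lower (Chil4, -1.82 log2, adjusted p = 0.00976, limma). The median of the list was 0.07 log2. Chil4 had 7.22, 6.34 and 6.58 in Scnn1b-Tg lungs, against 9.34, 8.93 and 7.32 in WT lungs at PND 10. At PND 42 Chil4 had 10.27, 10.13 and 9.63 in Scnn1b-Tg lungs, against 5.51, 5.46 and 5.81 in WT lungs. For both Chil4 and Retnla every Scnn1b-Tg array lay below every WT array at PND 10 and above every WT array at PND 42. The Chil4 call at PND 10 was lost without WT PND 10 replicate 1 or 2 (adjusted p up to 0.0907, limma). From PND 10 to PND 42 in WT lungs, Chil4 (-2.93 log2), Fn1 (-2.12 log2) and Ccl24 (-1.38 log2) were called lower beside Retnla, and Tgm2 (1.44), F13a1 (1.06) and Cd163 (1.04 log2) higher.

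**Figure D4:**
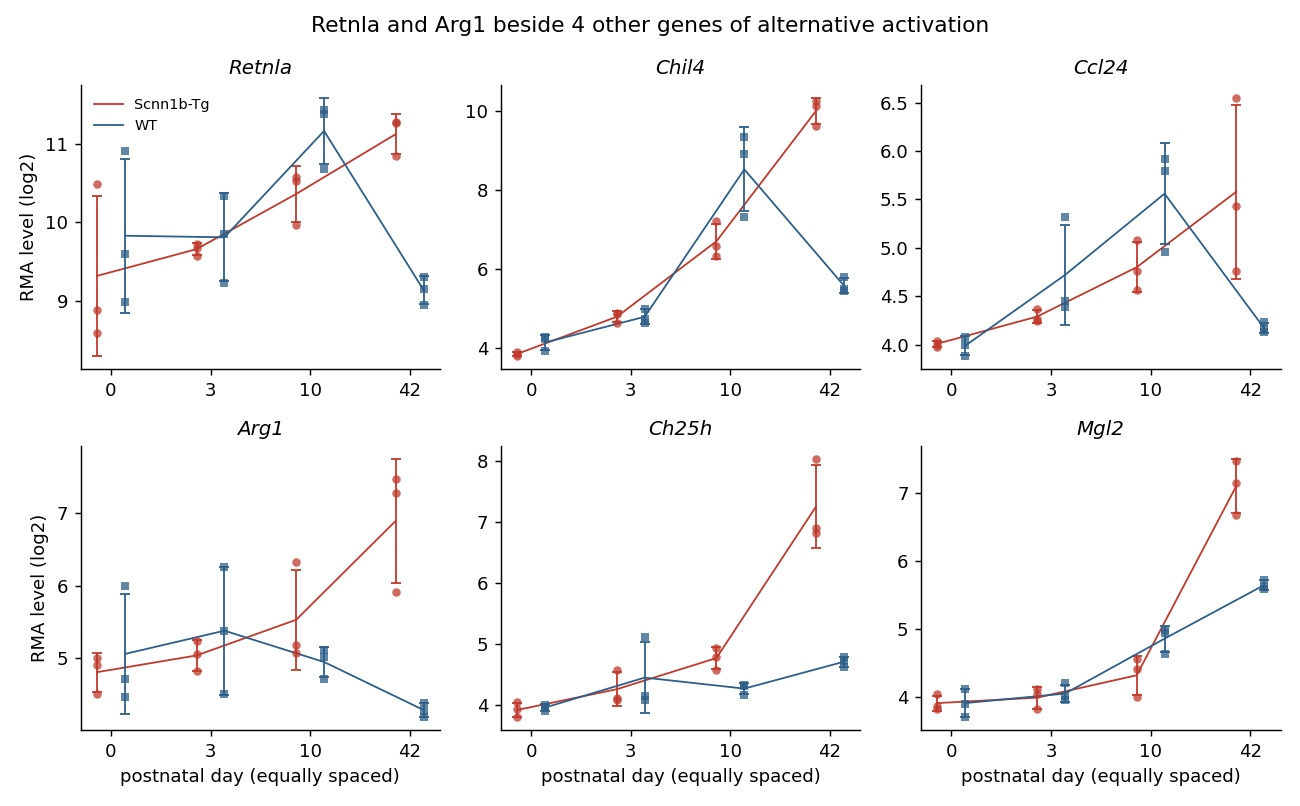
RMA level (log2, vertical axis, a separate range for each gene) of Retnla, Arg1 and 4 other alternative activation genes against postnatal day (equally spaced steps). Red circles are Scnn1b-Tg arrays and blue squares WT arrays, lines join group means, and bars are 1 SD over 3 arrays. In Retnla, Chil4 and Ccl24 the WT mean peaks at PND 10 (11.16, 8.53 and 5.56) and is lower at PND 42 (9.14, 5.59 and 4.17), whereas in Arg1, Ch25h and Mgl2 the WT mean of PND 10 (4.95, 4.27 and 4.86) is no peak.

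Few of the other ligands and receptors of the axis passed the test. Of 8 further type 2 ligands and alarmins 7 were measured and none was called at PND 42 (median 0.06 log2). Il4 lay between 3.44 and 3.87 and Il5 between 3.56 and 5.20 on all arrays, both mostly under the dim level. The Il5 difference at PND 42 was -0.75 log2 (SE 0.20) and did not pass (adjusted p = 0.0864, limma). Of 22 receptors and signalling genes 19 were measured and 2 were called higher, against 0.326% of all rows. They were Csf2rb, the shared beta chain of the interleukin 3, interleukin 5 and GM-CSF receptors (1.32 log2, adjusted p = 0.0256), and Il7r, the shared chain of the interleukin 7 and TSLP receptors (1.11 log2, adjusted p = 0.00472, both limma). The Csf2rb call was lost without WT replicate 2 or 3 or Scnn1b-Tg replicate 2 or 3 (adjusted p up to 0.164), and the Il7r call without WT replicate 3 or Scnn1b-Tg replicate 2 (up to 0.0568). Stat6, the transcription factor of the pathway, differed by 0.25 log2 (95% confidence interval -0.07 to 0.57; adjusted p = 0.64, limma).

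The enzyme and family relatives of the response genes did not pass the test, apart from C-type lectins. None of 14 measured genes of arginine and lipoxygenase metabolism was called at PND 42, Arg2 among them (0.69 log2, 95% confidence interval -0.55 to 1.94) and Nos2, the inducible nitric oxide synthase of classically activated macrophages (-0.10 log2, 95% confidence interval -0.45 to 0.25). None of the 3 other resistin-like genes was called, and all 3 differences were negative (Retn -0.29, Retnlg -0.20, Retnlb -0.12 log2). Of 8 further C-type lectin receptors 2 were called higher, against 0.326% of all rows. They were the endocytic receptor Ly75 (1.58 log2, adjusted p = 4e-05) and the beta-glucan receptor Clec7a (1.03 log2, adjusted p = 0.0465, both limma). At PND 10 this list had 1 gene called, Clec4n (1.25 log2, adjusted p = 0.00976), which lost its call without WT replicate 1, WT replicate 2 or Scnn1b-Tg replicate 1 (up to 0.111). The Clec7a call at PND 42 was lost without any 1 array but Scnn1b-Tg replicate 3 (adjusted p up to 0.24) and in 6 of 11 other settings, among them the replicate block (adjusted p = 0.0536, limma).

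A list of 15 genes was set out as epithelial genes responsive to interleukin 13, and 14 were measured. At PND 42, where 0.326% of all rows were called higher, 5 of the 14 were higher and none lower, with a median of 0.82 log2. They were the goblet cell gene Clca1 (4.05 log2, adjusted p = 2.6e-10), the anion exchanger Slc26a4 (3.07, adjusted p = 1.18e-07), the polymeric immunoglobulin receptor Pigr (2.22, adjusted p = 1.46e-05), the acidic chitinase Chia1 (1.89, adjusted p = 0.000807) and the mucin Muc5ac (1.20, adjusted p = 0.00204, all limma). The Muc5ac call was lost without Scnn1b-Tg replicate 3 because its change then fell under 2-fold (0.97 log2). At PND 10 Clca1 (-2.47 log2) and Muc5ac (-1.08 log2) were called lower and Pigr (1.21 log2) higher. The Muc5ac call at PND 10 was lost in 4 and the Pigr call in 5 of 6 fits without 1 array (adjusted p up to 0.121 and 0.28), and the Clca1 call in none. In WT lungs 6 of the 14 were lower at PND 42 than at PND 10, against 3.84% of all rows called lower. Among the 6 were Clca1 (-3.10 log2), Slc26a4 (-1.39), Chia1 (-1.34), Muc5ac (-1.29) and Agr2 (-1.22 log2). Pigr (1.02 log2) was higher. The goblet cell regulators Spdef (0.06 log2, 95% confidence interval -0.21 to 0.34) and Foxa3 (-0.19 log2, 95% confidence interval -0.46 to 0.08) were not called at PND 42.

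Markers of the cells that could hold these transcripts were read beside them. Of 6 general macrophage markers, all measured, 1 was called higher at PND 42 (Cd68, 1.69 log2, adjusted p = 0.000353, limma), and Csf1r (0.31), Adgre1 (0.52), Lyz2 (0.30), Fcgr1 (0.16) and Mertk (0.71 log2) were not. The mean of the 6 was 8.24 to 8.78 in Scnn1b-Tg arrays, against 7.79 to 8.02 in WT arrays at PND 42. At PND 10, when Retnla, Arg1 and Mrc1 were not called, it was 8.04 to 8.12 in Scnn1b-Tg arrays, against 7.64 to 7.66 in WT arrays. Cd68 was called higher at PND 10 as well (with the replicate block 1.13 log2, adjusted p = 0.0452, limma). This call was lost in 5 of 6 fits without 1 array (adjusted p up to 0.36, limma). Of 8 alveolar macrophage markers 7 were measured and 1 was called at PND 42, Itgax (1.96 log2, adjusted p = 0.000516, limma), with a mean of 7.12 to 7.84 in Scnn1b-Tg arrays, against 6.73 to 6.89 in WT arrays. Of 8 interstitial and monocyte-derived macrophage markers 7 were measured and none was called (6.64 to 7.02 in Scnn1b-Tg and 6.37 to 6.78 in WT arrays). At PND 42 the means of the general and alveolar lists were thus higher in Scnn1b-Tg arrays, with 1 gene called in each. The interstitial means overlapped between genotypes, and the part of macrophage numbers in these results was not tested.

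No eosinophil marker was called at PND 42 (0 of 5, mean 4.48 to 4.90 in Scnn1b-Tg and 4.53 to 4.75 in WT arrays), and the defining granule gene Epx stayed at or below 4.56 on all arrays. None of 9 mast cell and basophil markers was called (5.01 to 5.25 in Scnn1b-Tg and 5.06 to 5.19 in WT arrays). Of 8 markers of group 2 innate lymphoid and Th2 cells Il7r was called, and the list mean was 4.62 to 4.83 in Scnn1b-Tg and 4.65 to 4.73 in WT arrays. Gata3, the defining factor of both cell types, stayed at or below 4.50. Of 4 goblet cell markers Clca1 and Muc5ac were called higher at PND 42, and Spdef and Foxa3 were not. The list mean was 6.40 to 6.94 in Scnn1b-Tg and 5.30 to 5.47 in WT arrays at that age. At PND 10 it was 5.42 to 5.63 in Scnn1b-Tg and 6.26 to 6.61 in WT arrays, and its part in the Retnla result was not tested.

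The response genes differed in which other genes they resembled over the 24 arrays, by Pearson correlation with 19937 other genes, given as a description because arrays share age, genotype and normalization. For Mrc1 the most alike were Wdfy4 (0.948), Anpep (0.937), Nckap1l (0.925), Ptprc (0.913), the common leukocyte antigen CD45, and the lysosomal gene Psap (0.911). For Retnla they were Prnp (0.772), Chil4 (0.746), Slc26a4 (0.726), Zfp597 (0.710) and Ccl24 (0.706). For Arg1 they were Csf2rb2 (0.816), AA467197 (0.798), Tfec (0.784), Naip2 (0.783) and Fbp1 (0.782). For Alox15 the first was the proteoglycan gene Lum (0.857), for Il4ra the hexokinase gene Hk2 (0.906), for Il13ra1 Fcgr1 (0.842) and for Il33 Serpinb9 (0.753).

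After each age's mean was subtracted, Arg1 was most like Ms4a8a (0.886), Edem1 (0.878) and Ch25h (0.867), Mrc1 most like the lysosomal lipase gene Lipa (0.875), and Retnla most like Chic2 (0.845). Among the 9 genes themselves, the closest pairs on that scale were Arg1 with Mrc1 (0.74), Il4ra with Il13ra1 (0.68) and Retnla with Arg1 (0.62). Retnla and Mrc1, both called at PND 42, correlated at 0.33. Il13 correlated with Retnla, Arg1 and Mrc1 at -0.07, 0.00 and 0.01, and with Alox15 at 0.55. Il13 was dim on all 24 arrays, so its correlations say little. The share of variance between genotypes within an age was 61.1% for Arg1, 41.3% for Retnla and 19.1% for Mrc1, against 70.8% between ages for Mrc1 and 67.1% for Alox15.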

How the data were processed

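Whole left lung RNA pools were measured on 24 Affymetrix arrays. The authors deposited log2 values per transcript cluster, background corrected, quantile normalized and summarized by RMA in Partek (version 6.5 in the submitters' processing notes), and these log2 values were used without further normalization. Of 35556 rows, 21789 name exactly 1 gene and were tested, while 1621 rows with several genes and 12146 with none were left out. Replicates are separate pools of mice, so p values measure the spread between pools, and 3 arrays per group limit the precision. A limma model (limma 3.58.1, R 4.3.3) with 8 group means (16 residual degrees of freedom) gave 15 contrasts, with Benjamini-Hochberg adjustment over all tested rows within each contrast. Calls required an adjusted p no higher than 0.05 together with a 2-fold change or more. The fit was tested on simulated data with known changes. All 9 measured genes were described, with other genes named where called in a list, or as the 5 most alike by correlation, and further list genes given as context. The genes and lists were chosen with earlier results of these data known. Promoter sequences are from RefSeq. Alternatives covered variance moderation, weights, filters, normalization, thresholds, the replicate number as a block and each array left out. Macrophage arrays of the same study were not used here.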

Additional observations from a re-analysis of the deposited data

Results flagged for a closer look

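The genotype difference at PND 42 differed from that at PND 10, by a test of the difference itself in limma (Benjamini-Hochberg adjusted over all rows), for 1 of the 9 genes, Retnla, by 2.79 log2 (SE 0.59, adjusted p = 0.0441). Among the genes of alternative activation the same test passed for Chil4 (6.23 log2, SE 0.45, adjusted p = 4.75e-08), Chil3 (3.23, SE 0.52, 0.00521), Mmp12 (2.36, SE 0.39, 0.00608), Ccl24 (2.17, SE 0.44, 0.0355), Ch25h (2.04, SE 0.35, 0.0112), Mgl2 (1.99, SE 0.24, 0.00014), Ccl17 (1.88, SE 0.41, 0.0496), Fn1 (1.70, SE 0.34, 0.0347) and Pdcd1lg2 (1.10, SE 0.20, 0.0172). Left out 1 at a time, the arrays ended the call of Ccl17 and Fn1 in 9 of 12 fits each (adjusted p up to 0.161 and 0.113), of Ccl24 in 8 (up to 0.13) and of Pdcd1lg2 in 3 (up to 0.0792), and of Chil4, Chil3, Mmp12, Ch25h and Mgl2 in none. Without variance moderation the calls of Chil3 (0.0514), Mmp12 (0.053) and Ch25h (0.0689) were lost as well. Over 11 other settings Ccl17 lost its call in 6 (up to 0.143), Ccl24 in 4 (up to 0.121) and Fn1 in 2 (up to 0.118), Pdcd1lg2 lost it in 2 of 10 (up to 0.0677), and Chil4 and Mgl2 kept theirs in all.

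On the list set out as epithelial genes responsive to interleukin 13, the same test passed for Clca1 (6.52 log2, SE 0.31, adjusted p = 1.85e-11), Slc26a4 (3.90, SE 0.35, 1.56e-06), Muc5ac (2.29, SE 0.29, 0.000192), Chia1 (2.23, SE 0.41, 0.0172) and Agr2 (1.10, SE 0.16, 0.00148, limma). Chia1 lost its call in 4 of 12 such fits (up to 0.0613) and without variance moderation (0.0894), and Agr2 fell under 2-fold in 1, without WT PND 10 replicate 3 (0.97 log2). The genotype difference at PND 10 minus that at PND 3 passed for Clca1 (-2.54 log2, SE 0.31, adjusted p = 0.00103, limma).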

How the results depend on the processing

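None of the values of the 9 genes changed direction with a call under any alternative. The 3 genes called at PND 42 stayed 3 or became 2 (Retnla lost), and none was called at PND 0, 3 or 10 under any setting. Without a fold threshold, the number of the 9 called became 2 (PND 3 against PND 0, Scnn1b-Tg), 2 (PND 3 against PND 0, WT), 2 (PND 42 against PND 10, WT) and 4 (PND 42 against PND 0, WT), and at 1.5-fold 1, 2, 2 and 3. Over all 21789 rows the calls in these comparisons reached 10772, 10153, 6627 and 12269 across the other settings, so these counts say little about the 9 genes. For PND 42 against PND 0 in Scnn1b-Tg lungs the 4 called became 5 without a fold threshold, while the calls over all rows reached 11713 across the other settings. Il13ra2 was added there (0.56 log2, adjusted p = 0.000202, limma). For PND 10 against PND 3 in WT, Retnla became 1 called gene with array weights, dim rows left out or the compared arrays alone. For PND 42 against PND 0 in WT, repeated quantile normalization gave 2 genes. The change of the genotype difference from PND 10 to PND 42 had 0 genes called without moderation, with the trended robust prior, over all rows of the table, with repeated quantile normalization and with array medians subtracted.

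Leaving out 1 array gave 0 to 1 genes called for PND 3 against PND 0 in WT, 1 to 2 for PND 42 against PND 0 in WT (Retnla at -1.12 log2 without WT PND 0 replicate 3), 1 to 2 for PND 42 against PND 10 in Scnn1b-Tg, and 0 to 3 for the change of the genotype difference. Over all tested rows, the 74 called at PND 42 became 45 to 113 without 1 array and 55 to 198 under the other settings. The 33 called at PND 10 became 10 to 59 and 15 to 119 in the same way. Of the listed genes called at PND 42, Clec7a lost its call in 6 of 11 other settings, Ccl24 in 3, Fn1 and Csf2rb in 2 each, and Slc7a2, Il7r and Muc5ac in 1 each (adjusted p up to 0.125, 0.208, 0.0961, 0.0901, 0.0706, 0.103 and 0.0568 in that order). At PND 10 Pigr lost it in 4, Chil4 and Cd68 in 2 each, and Muc5ac and Clec4n in 1 each.

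The arrays share replicate numbers only: same-numbered arrays of the genotypes correlated at -0.255 to 0.299 in their deviations from group means, above 0.1 in 5 of 12 pairs, and 5 of 12 correlated best with their own number. With the replicate block, 1 gene (Retnla) was called for PND 10 against PND 3 in WT (adjusted p = 0.0308, limma), 78 rows were called at PND 42, and among the 9 genes no other count of calls changed. Among the listed genes the block ended the PND 42 call of Clec7a (adjusted p = 0.0536) and no other genotype call. The cause of these changes was not tested.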

Other observations

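At PND 0 the first array of each genotype held the highest Retnla of its group, 10.49 in Scnn1b-Tg and 10.90 in WT lungs. The first WT array of PND 0 also held the lowest Il33 (6.45) and the highest Il4ra (8.57) of all 24 arrays, and its Arg1 level of 6.00 stood above those of the other WT arrays of PND 0 (4.72 and 4.47).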
